A study of Homo sapiens with 4 samples.

Results

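The glutathione peroxidases GPX1, GPX2, GPX3, GPX4, GPX7 and GPX8 were followed across 4 cultures of Nalm-6, a human pre-B leukemia cell line. Members were the probes whose RefSeq accession mapped to 1 of these 6 gene symbols, which gave 9 of the 41000 probes on the array and 6 of the 18203 genes with a probe. One culture was wild type (WT). Another lacked actin-related protein 5 through gene targeting of both alleles (Arp5 KO), a further one carried the label of a knockout of actin-related protein 8 (Arp8 KO), and the last carried the label Arp8 overexpression (Arp8 OE). Both proteins belong to INO80, a chromatin remodeling complex, and the study asked how INO80 acts on transcription under oxidative stress. By the treatment protocol in the labels, all cultures received 20 uM heme for 12 hours. The labels contradict each other on this point for both knockouts, whose treatment characteristic reads no heme, so genotype and heme treatment cannot be told apart in the knockouts.

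Each culture had 1 array and no replicate, so differences between cultures were given without a test and with technical errors only. All 4 arrays lay on 1 slide and shared 1 scan time. ACTR5, the gene of Arp5, lay at a log2 difference from WT of -4.27 in Arp5 KO, and the 2 probes of ACTR8, the gene of Arp8, at -0.53 and -0.68 in Arp8 KO. Both ACTR8 probes were still well above background there, at 223.9 and 485.0, so the array labelled Arp8 KO did not show a loss of ACTR8 RNA, and whether these probes lie in the disrupted part of the gene is not given in the sources used here. ACTR8 lay at 0.02 and -0.01 on the array labelled Arp8 OE, so these probes did not show the named overexpression. Whether they would detect the overexpressed RNA is likewise not given. Both Arp8 KO and Arp8 OE are used below as the names of labelled arrays only. Markers of B-cell precursors were well above background for 11 of 11 genes with a probe on every array, with summed signals from 209334 to 260768. Of 5 T-cell markers, 0 or 1 was well above background. Of 5 myeloid markers this held for 1 or 2 and of 4 erythroid markers for 1 or 2, at summed signals of at most 161.5 and 93.6. Of 5 epithelial markers, KRT8 and KRT18 were well above background on every array.

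Glutathione peroxidases reduce hydrogen peroxide and organic hydroperoxides to water and alcohols, and glutathione is the usual electron donor. GPX1, GPX2, GPX3 and GPX4 carry selenocysteine at the active site, whereas GPX7 and GPX8 carry cysteine and reside in the endoplasmic reticulum. GPX1 is the abundant cytosolic and mitochondrial enzyme, GPX2 the gastrointestinal one, GPX3 the secreted plasma enzyme made largely by the kidney, and GPX4 the one that reduces lipid hydroperoxides in membranes and restrains ferroptosis. Heme, the stressor here, is also a ligand of the repressor BACH1, which competes with the activator NRF2 for antioxidant response elements.

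Of the 9 probes, 5 were measured well above background on at least 1 array and represented GPX1, GPX3, GPX4 and GPX7. The GPX2 probe and all 3 GPX8 probes stayed below that limit on every array. A single probe, that of GPX3, lay past 2-fold against WT, and it was lower on each of the 3 other arrays. GPX1 came next, with its highest level in Arp8 KO. The levels below are the processed signal (background-subtracted brightness) divided by the array's 75th percentile, and they were compared between arrays for the same probe only.

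**Figure D1:**
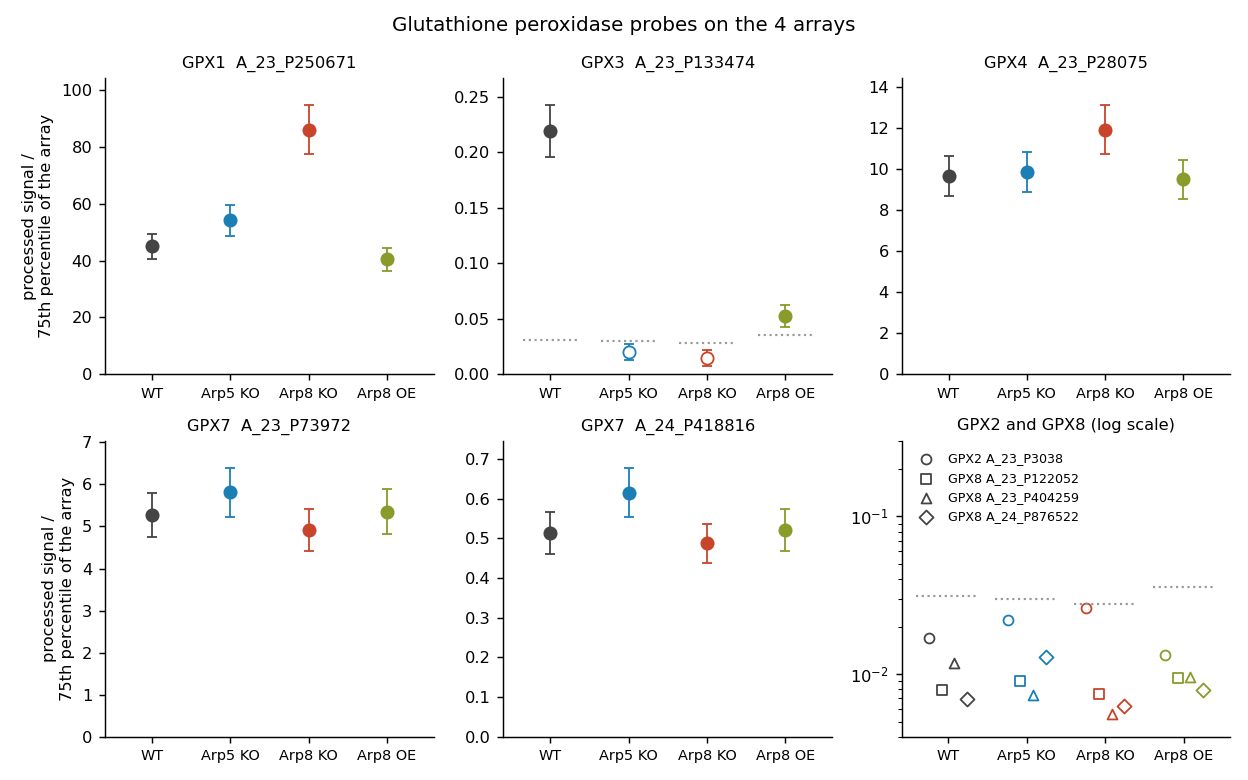
Level of each glutathione peroxidase probe on the 4 arrays, as processed signal over the array's 75th percentile; bars are the scanner software's error of 1 spot, open symbols are probes not well above background, and dotted lines are the lowest signal well above background on that array. GPX3 stood highest on WT and GPX1 highest on Arp8 KO, while GPX4 and both GPX7 probes stayed within 1.26-fold across the arrays.

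Promoter windows from RefSeq (GRCh38.p14), from 250 bases before to 50 after a gene's start, were available for 6 of 6 members in 8 windows, 3 of them for GPX4. They were searched on both strands for TGACNNNGC, the core of the antioxidant response element bound by NRF2 and BACH1 with small MAF proteins, and for the related TGAGNNNGC. GPX3 and GPX1 are shown because their probes moved most, and GPX2 and GPX7 because their windows held a match, set in capitals in the gene's own 5′ to 3′ reading.
GPX3 (chr5:151020341-151020640, plus strand): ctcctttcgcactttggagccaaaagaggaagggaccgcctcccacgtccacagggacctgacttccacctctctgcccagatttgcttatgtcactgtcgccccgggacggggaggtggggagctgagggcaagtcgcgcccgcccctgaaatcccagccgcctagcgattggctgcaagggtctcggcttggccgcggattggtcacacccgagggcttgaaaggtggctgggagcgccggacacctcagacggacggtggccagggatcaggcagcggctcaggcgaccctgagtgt
GPX1 (chr3:49358304-49358603, minus strand): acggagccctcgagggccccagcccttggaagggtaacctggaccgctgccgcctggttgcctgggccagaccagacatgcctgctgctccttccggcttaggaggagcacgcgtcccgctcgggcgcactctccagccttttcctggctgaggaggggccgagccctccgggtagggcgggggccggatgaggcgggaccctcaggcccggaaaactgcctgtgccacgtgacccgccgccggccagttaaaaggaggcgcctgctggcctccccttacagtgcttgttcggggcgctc
GPX2 (chr14:64942696-64942995, minus strand): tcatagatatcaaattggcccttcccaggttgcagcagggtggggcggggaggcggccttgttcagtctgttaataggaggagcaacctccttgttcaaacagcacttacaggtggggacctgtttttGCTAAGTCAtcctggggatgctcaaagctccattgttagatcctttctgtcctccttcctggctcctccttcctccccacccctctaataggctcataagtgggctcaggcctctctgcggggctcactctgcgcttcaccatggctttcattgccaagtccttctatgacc
GPX7 (chr1:52602121-52602420, plus strand): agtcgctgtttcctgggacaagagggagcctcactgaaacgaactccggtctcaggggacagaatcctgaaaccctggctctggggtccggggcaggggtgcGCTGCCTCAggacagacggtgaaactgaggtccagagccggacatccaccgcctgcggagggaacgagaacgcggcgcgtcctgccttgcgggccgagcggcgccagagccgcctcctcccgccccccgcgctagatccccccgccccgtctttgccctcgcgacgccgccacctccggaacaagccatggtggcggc
The GPX2 match reads TGACTTAGC on the opposite strand, at bases -122 to -114 from the start, and the GPX7 match reads TGAGGCAGC, also on the opposite strand, at -148 to -140. No match was found in the windows of GPX1, GPX3, GPX4 or GPX8. TGACNNNGC occurred in 13.3% of 35116 windows of this length, TGAGNNNGC in 18.3% and either in 29.1%, so 2 of 8 windows is close to the background. A match in these letters is a description of the window only. The GPX2 gene, with the match, was below background on all 4 arrays, and GPX3, with the largest difference, had none in this window.

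The windows also differed in base composition. GC content was 69.7% for GPX1, 65.0% for GPX3, 69.0% for GPX7 and between 70.7% and 79.0% for the GPX4 windows, against a median of 58.7% over all windows. GPX2 and GPX8, the 2 genes below background, had the lowest GC content of the members, 53.7% and 43.0%, and 4 CpG dinucleotides each. GPX1 had 23, GPX3 21 and GPX7 30.

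The GPX3 probe (A_23_P133474) had a processed signal of 161.1 in WT (software error 17.1), 33.8 in Arp8 OE (6.55), 14.6 in Arp5 KO (5.49) and 9.54 in Arp8 KO (4.72). WT was thus the high array, Arp8 OE was low but still above background, and both knockouts lay below the lowest signals called well above background there, 22.2 in Arp5 KO and 18.3 in Arp8 KO. Set against those lowest signals, GPX3 in Arp5 KO was at least 7.31-fold lower than in WT, a bound of -2.87 on the log2 scale. The bound for Arp8 KO was at least 7.87-fold, or -2.98. In Arp8 OE the log2 difference from WT was -2.07 with a software error of 0.32. The bulk signal cannot tell fewer expressing cells from less RNA per cell. Of all tested probes, 0.571% lay lower than GPX3 in Arp8 OE, and no rank was read for the knockouts, where its value is a bound.

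The order of Arp5 KO and Arp8 KO for GPX3 could not be read, since neither was above background. Against Arp8 OE, the GPX3 bounds were -0.80 on the log2 scale for Arp5 KO (at least 1.74-fold lower) and -0.91 for Arp8 KO (at least 1.87-fold). Whether either difference passed 2-fold could not be determined, since these bounds are the smallest drops that the background allows. Background correction by normexp, with an offset of 50 added to every spot, shrank the differences from WT to -1.35 for Arp5 KO, to -1.41 for Arp8 KO, and to -1.01 for Arp8 OE.

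The GPX3 probe was printed once, so its surroundings on the slide were examined. None of its 6 adjacent spots stood out on WT (over 2-fold above its value on each other array), and of the 59 spots within 60 pixels 1 did, at a distance of 38.7 pixels. Over the whole slide, 0.784% of spots were bright in this way on WT alone. The GPX3 spot itself exceeded its highest value on another array by 2.07 on the log2 scale. Markers of the kidney tubule, the main source of plasma GPX3, were well above background for 3 of 4 genes in WT and Arp5 KO and for 2 of 4 in Arp8 KO and Arp8 OE. Their summed signal was 298.9 in Arp5 KO, 217.5 in WT, 190.3 in Arp8 OE and 189.7 in Arp8 KO, with CUBN not above background anywhere. Their part in the GPX3 values was not tested.

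**Figure D2:**
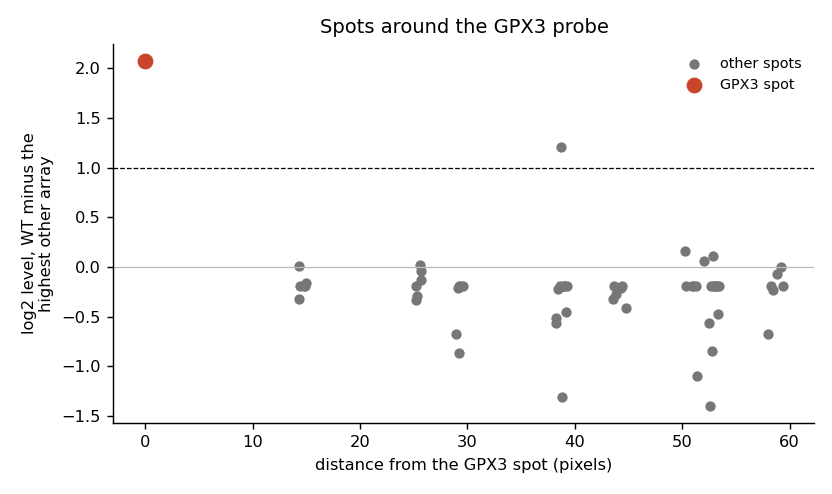
Spots within 60 pixels of the GPX3 spot, by distance in pixels, with the log2 level on WT minus the highest log2 level on the 3 other arrays. The GPX3 spot stood at 2.07 and 1 of the 59 other spots was above the dashed 2-fold line.

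Probes with the 4-array pattern nearest to GPX3 were sought by the Euclidean distance between log2 levels centred on their mean, among 18631 probes with a symbol. The nearest gene was HMOX1, which encodes the inducible heme oxygenase and is the main gene of the study, at a distance of 0.13. The next were CACNA1H, KSR1, CALR3 and SPON1, at 0.42 to 0.45. Against WT the log2 difference of HMOX1 was -2.98 (Arp5 KO), -2.91 (Arp8 KO) or -2.05 (Arp8 OE). All of these points share the same 4 arrays, and the GPX3 values in the knockouts are set by the lowest signal well above background, so the distance is a description over 4 points. KSR1 was above background on 2 arrays, and CALR3 and SPON1 on 1, so their values are partly set by it too.

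GPX1 (A_23_P250671), the main cytosolic glutathione peroxidase, had processed signals of 56489.8 in Arp8 KO, 40138 in Arp5 KO, 33110.1 in WT and 26196 in Arp8 OE. Over the 75th percentile these were 86.1, 54.3, 45.0 and 40.5, so that the levels ran from Arp8 KO through Arp5 KO and WT down to Arp8 OE. Against WT, GPX1 was 1.91-fold higher in Arp8 KO, a log2 difference of 0.94 with a software error of 0.20, just short of 2-fold. It was higher than in Arp5 KO by 0.67 and than in Arp8 OE by 1.09, a 2.13-fold difference. Arp5 KO lay 0.27 above WT, which exceeded the software error of 0.20, and Arp8 OE lay 0.15 below WT, within that error. In Arp5 KO, 28.9% of all tested probes lay further from 0 than GPX1. Of all probes tested, 3.91% were further up than GPX1 in Arp8 KO against WT, and 1.39% in Arp8 KO against Arp8 OE. None of the 5 spots adjacent to GPX1 was bright on 1 array alone.

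The genes with the pattern nearest to GPX1 were SPATA33, NR1D1, ZNF333, FDXR and YRDC, at distances of 0.053 to 0.11. SPATA33 was 0.21 above WT in Arp5 KO and 0.93 above it in Arp8 KO, and lay at -0.15 in Arp8 OE. FDXR, which encodes the mitochondrial ferredoxin reductase, lay at 0.33, 0.89 and -0.07 on the same arrays. These distances, too, describe 4 points from the same arrays.

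GPX4 (A_23_P28075), which reduces lipid hydroperoxides, had levels of 11.9 in Arp8 KO, 9.85 in Arp5 KO, 9.67 in WT and 9.50 in Arp8 OE. The log2 differences from WT were 0.30, 0.03 and -0.03 for Arp8 KO, Arp5 KO and Arp8 OE, each with a software error of 0.20, so only the one in Arp8 KO exceeded that error. A difference of that size was common, as 47.0% of all tested probes lay further from 0 in Arp8 KO. Across the 4 arrays the GPX4 level ranged over 0.33 on the log2 scale, and 30.7% of 25460 probes ranged less. The median range over those probes was 0.45. GPX1 by the same measure ranged over 1.09, more than 88.5% of probes, while GPX3, well above background on 2 arrays, ranged over at least 2.98.

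GPX7, an endoplasmic reticulum peroxidase with cysteine at its active site, had 2 probes. The probe A_23_P73972 had levels of 5.81 in Arp5 KO, 5.35 in Arp8 OE, 5.27 in WT and 4.91 in Arp8 KO. The other, A_24_P418816, had levels of 0.615, 0.521, 0.514 and 0.487 on the same arrays. Both probes put Arp5 KO highest and Arp8 KO lowest. Their log2 differences from WT were 0.14 and 0.26 in Arp5 KO. For Arp8 KO they were -0.10 and -0.08, and for Arp8 OE 0.02 on each. The 2 probes disagreed by at most 0.12 in any of the 6 pairs of arrays. The software error of these differences was 0.20 to 0.21. In Arp8 KO against Arp5 KO both probes exceeded it, at -0.24 for A_23_P73972 and -0.34 for A_24_P418816. The latter also exceeded it in Arp5 KO against WT (0.26) and against Arp8 OE (0.24). The other differences lay within it.

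The 2 remaining genes were too dim to compare. GPX2 (A_23_P3038) had processed signals of 17.2 in Arp8 KO, 16.3 in Arp5 KO, 12.4 in WT and 8.53 in Arp8 OE, against a lowest signal well above background of 18.3, 22.2, 22.8 and 23.0 on these arrays. No order among these values was read. GPX8 probes A_23_P404259 and A_24_P876522 had signals between 3.64 and 9.49 on all arrays. The third, A_23_P122052, was printed at 10 positions and gave a median of 5.93 in WT and medians of 4.90 in Arp8 KO and 5.92 in Arp5 KO.

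On the Arp8 OE array 2 of these 10 GPX8 spots were bright, at 226.3 and 50.2, while the other 8 lay between 4.61 and 10.2. Beside the brighter one, 4 of 6 adjacent spots were over 2-fold brighter on Arp8 OE than on each other array, and beside the dimmer one 1 of 5 was. At these positions the 3 other arrays gave between 4.63 and 13.4. The scanner software marked both spots as outliers, and they were left out of the GPX8 level.

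**Figure D3:**
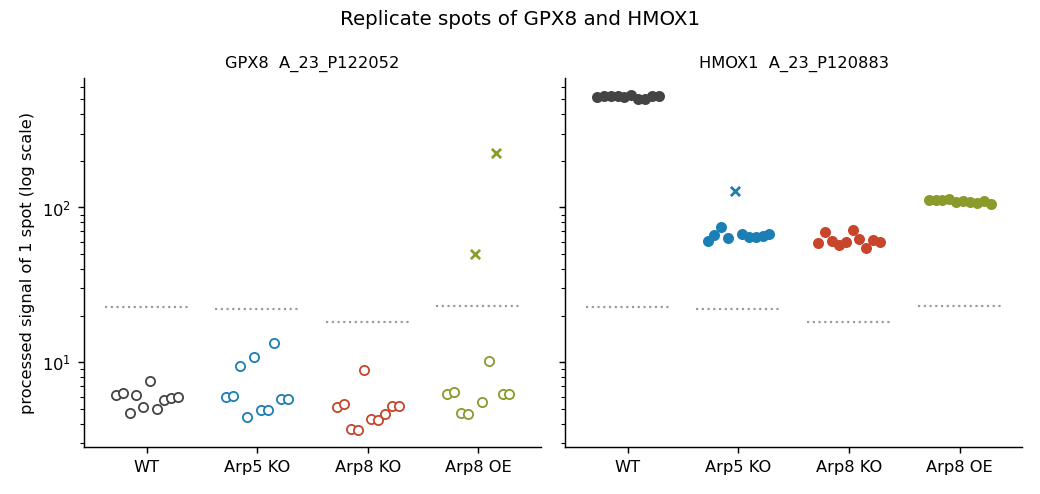
Processed signal (log scale) of each of the 10 replicate spots of the GPX8 probe A_23_P122052 and of the HMOX1 probe on the 4 arrays; crosses are spots marked as outliers, open circles are spots not well above background and dotted lines are the lowest signal well above background. The GPX8 spots lie below the dotted lines except 2 outlier spots on Arp8 OE at 226.3 and 50.2, whereas HMOX1 spots separate WT from the 3 other arrays.

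The member probes were counted against WT next, beside all probes tested. In Arp5 KO, 1 of 5 tested member probes was past 2-fold, compared with 3.7% of all 24285 probes tested. In Arp8 KO it was 1 of 5, compared with 7.71% of 24578, and in Arp8 OE 1 of 5, compared with 5.11% of 24177. The probe was GPX3 each time and the direction lower. In both knockouts GPX3 entered the comparison only through WT, where it was high. With both arrays required to be well above background, 0 of 4 member probes was past 2-fold in each knockout. The share of all tested probes was then 1.59% in Arp5 KO and 5.39% in Arp8 KO. The 5 log2 differences had a median of 0.14 for Arp5 KO (0.0042 over all tested probes), -0.08 for Arp8 KO (0.026), and -0.03 for Arp8 OE (0.00024). These comparisons share the WT array, so they are not separate evidence of a low GPX3. Between cultures other than WT, 0 of 4 tested member probes was past 2-fold for Arp8 KO against Arp5 KO (5.71% of all probes), 0 of 5 for Arp5 KO against Arp8 OE (5.36%) and 1 of 5, GPX1, for Arp8 KO against Arp8 OE (5.43%, or 1.64% higher). The GPX3 probe could not be tested in the first of these pairs, and in the other 2 its bounds leave undetermined whether it passed 2-fold.

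**Figure D4:**
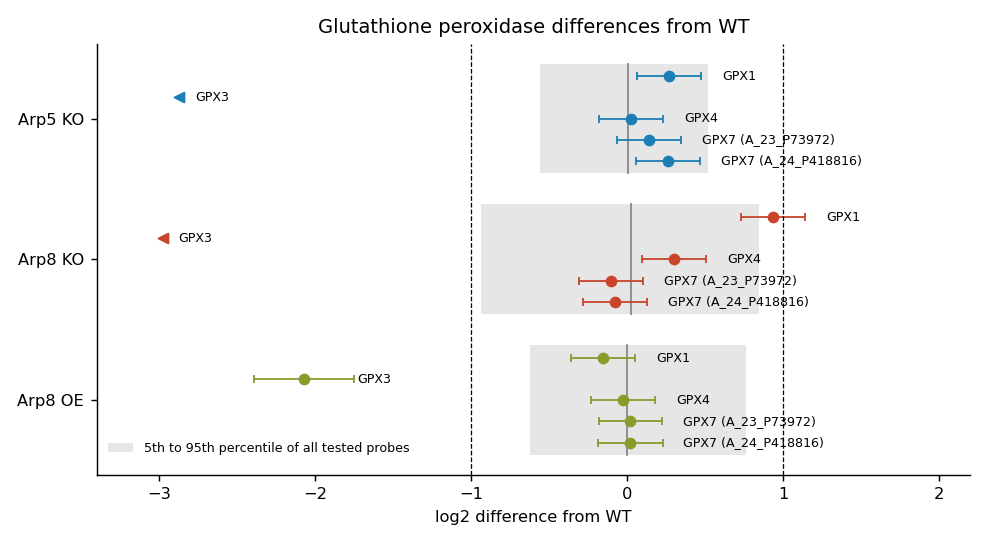
Log2 differences from WT of the 5 measured glutathione peroxidase probes in the 3 other cultures; bars are the software error of a difference, triangles are bounds (GPX3 not above background), grey boxes span the 5th to 95th percentile of all tested probes with their median as a line, and dashed lines mark 2-fold. GPX3 lies far left in each culture and GPX1 in Arp8 KO lies at 0.94, beyond the 95th percentile of 0.85.

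Glutathione is the usual, though not the only, electron donor in this family. Among genes of its supply, 2 of the 3 probes for SLC7A11, 1 of the 2 for GSR and the GCLM probe were over 2-fold lower in Arp8 KO. The same SLC7A11 probes were over 2-fold lower in Arp5 KO too. Of 12 tested probes for 8 genes, 2 were over 2-fold lower in Arp5 KO (2.01% of all tested probes), 4 in Arp8 KO (4.35%), and 0 in Arp8 OE (2.15%). None in this or the following lists was over 2-fold higher, where 1.69%, 3.37% and 2.96% of all tested probes were. The list medians were -0.37, -0.58 and -0.21. SLC7A11, the cystine transporter subunit, was at -2.06 on 2 of its 3 probes in Arp5 KO, and at -3.33 and a bound of -3.48 on these in Arp8 KO. Its remaining, dim probe gave bounds of -0.66 and -0.77, from which passing 2-fold could not be determined. GCLM, the modifier subunit of glutamate-cysteine ligase, was at -1.26 in Arp8 KO, and GSR, which reduces oxidised glutathione, at -1.13 and -0.74 on its 2 probes. GSR lay at -0.41 and -0.36 in Arp5 KO and at -0.73 on each probe in Arp8 OE.

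The list of other peroxide-removing enzymes was represented by 16 tested probes for 13 genes. It also held SOD1 and SOD2, which act on superoxide, and the thioredoxins and thioredoxin reductases TXN, TXN2, TXNRD1 and TXNRD2. All of these enter its counts and medians. None of the 16 probes was past 2-fold in Arp5 KO (3.7% of all tested probes). In Arp8 KO and in Arp8 OE 2 were over 2-fold lower (4.35% and 2.15% of all tested probes), both of TXN, which encodes thioredoxin. No probe of CAT or of a peroxiredoxin (PRDX) gene was past 2-fold in these cultures. TXN was at -1.69 and -1.72 in Arp8 KO and at -1.53 and -1.62 in Arp8 OE. TXNRD1, the selenoprotein that reduces thioredoxin, was at -0.85 in Arp8 OE, -0.68 in Arp8 KO and -0.29 in Arp5 KO. The list medians were -0.13, -0.41 and -0.25.

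GPX1 to GPX4 need the machinery that inserts selenocysteine. Of 21 probes for 11 genes of that machinery, 0 were past 2-fold in any of the 3 comparisons, and the medians were 0.04, 0.026 and -0.14. SECISBP2, which binds the selenocysteine insertion element in these mRNAs, was at 0.24 and -0.01 on its 2 probes in Arp5 KO and at 0.50 and 0.07 in Arp8 KO. Of the other selenoprotein genes, 17 probes were tested in Arp5 KO and 16 in each other culture. Again 0 were past 2-fold, which is likewise close to the shares over all tested probes, and the medians were -0.04, 0.0093 and -0.14.

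A list of genes related, like GPX4, to lipid peroxidation and ferroptosis included AIFM2, DHODH and FTH1, which had probes over 2-fold lower in Arp8 KO. The list pools genes of unlike role, so its counts and medians give no direction for lipid peroxidation. Of 17 tested probes for 10 genes, 7 were over 2-fold lower in Arp8 KO (4.35% of all tested probes), and 2 each in Arp5 KO (2.01%) and Arp8 OE (2.15%). In the order Arp5 KO, Arp8 KO, Arp8 OE the list had medians of -0.07, -0.70 and -0.33. These medians were taken over probes, and FTH1 had more tested probes than any other gene of the list. The Arp8 KO median was itself the value of an FTH1 probe, so it does not describe the list gene by gene. In Arp8 KO 4 of the 7 were probes of FTH1, the ferritin heavy chain, at -1.71 to -1.91, and another FTH1 probe was at -0.70. The same 4 probes lay at -0.79 to -0.92 in Arp8 OE and at -0.27 to -0.38 in Arp5 KO. The remaining FTH1 probe was at 0.05 in Arp8 OE and 0.22 in Arp5 KO. AIFM2, which reduces ubiquinone and limits lipid peroxidation, was at -1.82 and -1.39 on 2 probes in Arp8 KO, -1.16 and -0.85 in Arp5 KO, and -1.28 and -0.88 in Arp8 OE. DHODH, a mitochondrial enzyme of pyrimidine synthesis that also reduces ubiquinone, was at -1.61 in Arp8 KO and -1.24 in Arp5 KO. TFRC, the transferrin receptor, was at -1.16 in Arp8 OE, -0.87 in Arp8 KO and 0.03 in Arp5 KO. In the same Arp8 KO array GPX4 lay at 0.30 and GPX1 at 0.94.

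**Figure D5:**
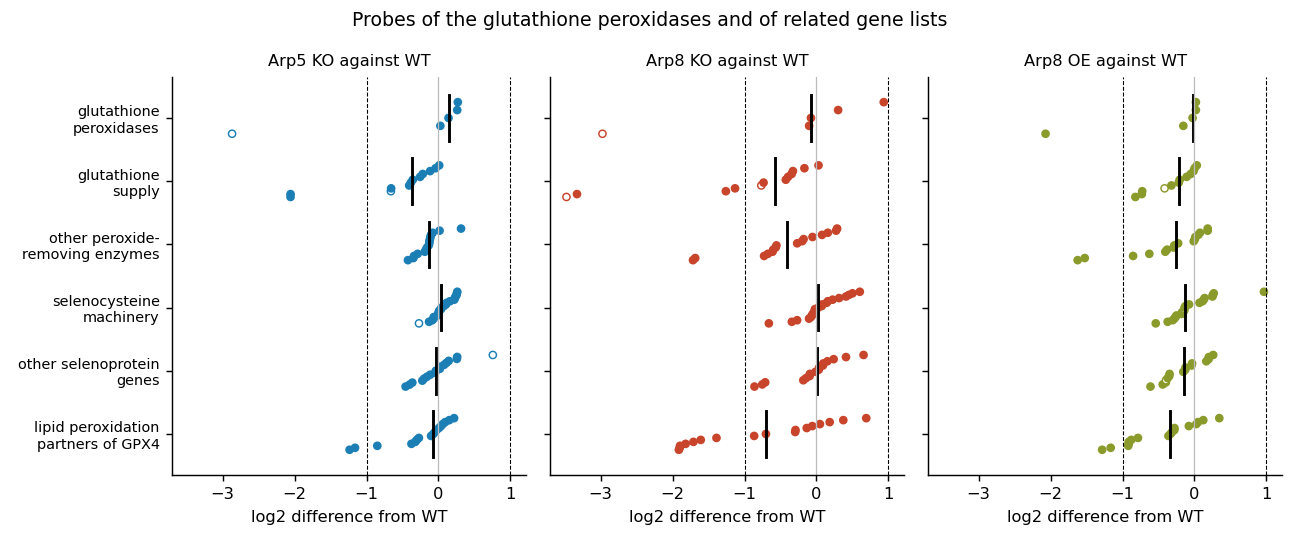
Log2 differences from WT of each tested probe (points; open points are bounds) of the glutathione peroxidases and of 5 related gene lists in the 3 other cultures, with the median of each list as a black bar and 2-fold as dashed lines. In Arp8 KO the glutathione supply and lipid peroxidation lists had medians of -0.58 and -0.70, while the glutathione peroxidases had -0.08 with GPX3 far to the left. Medians are over probes, and that of -0.70 is the value of an FTH1 probe.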

How the data were processed

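Total RNA of 4 Nalm-6 cultures was labelled with Cy3 and hybridised to 1-colour Agilent arrays, 1 per culture. The authors deposited scanner files with intensity per spot on a linear scale, which the scanner software (per the file headers, version 10.10.1.1 of Agilent Feature Extraction) had background-subtracted and detrended within each array but not normalized between arrays. The deposited series matrix holds the same intensity times 1 factor per array (1.99 to 2.29). Per-array column medians of that table were 120.4 to 126.5. No columns were left unmatched.

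Levels were log2 of the processed signal minus the array's 75th percentile (647.4 to 739.6). Outlier spots (69 to 76 per array) were left out, and replicate spots were averaged. A probe counted as well above background when 50% or more of its spots did, and entered a comparison when it did so on either array. Dimmer values were raised to the lowest level well above background, which gives bounds. Between 55.8% and 57.4% of probes were well above background, and no spot was saturated. The technical SD of a log2 difference from replicate spots was 0.08. The error of 1 spot is the scanner software's own, carried over to log2 differences. Precision is limited by the number of arrays. Of 41000 probes, 27210 matched a gene symbol in RefSeq (GRCh38.p14) by accession. The file headers name hg19, so no gene coordinates of the table were used.

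Named genes were the members, the targeted genes and HMOX1, up to 6 genes per list with a probe past 2-fold against WT and well above background on both arrays, TXNRD1, GSR and SECISBP2, and the 5 genes nearest in pattern to a member ranging over 1 on the log2 scale. GGT1 and CD24 had no probe by that symbol. Members and lists were chosen with earlier results of these data known. The script for differences was tested on simulated data. Normexp used limma 3.58.1 in R 4.3.3 on the median spot signal, the mean not being used here, with an offset of 50. Python 3.11.15 and pandas 2.3.3 did the rest. Alternatives were other scalings, normexp, the series matrix, filters on dim probes, gene means, a 1.5-fold threshold, Arp8 OE as the reference, and leaving out probes with 50% or more of their spots next to (within 20 pixels of) a spot bright on 1 array alone.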

Additional observations from a re-analysis of the deposited data

How the results depend on the processing

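Counts of glutathione peroxidase probes past 2-fold kept their value in 24 of 29 recomputations, some of which, named below, could not change it. Restricted to probes well above background on both arrays, the count fell from 1 to 0 in Arp5 KO and to 0 in Arp8 KO, because GPX3 was then not tested. Without a filter or floor it was 2 in Arp8 KO, the second being a GPX8 probe below background on every array. With a 1.5-fold threshold it was 2 in Arp8 KO, GPX3 and GPX1, where 21.3% of all probes passed. With Arp8 OE as the reference it was 0 in Arp5 KO, and it stayed at 1 in Arp8 KO with GPX1 in place of GPX3, whose bounds of -0.80 and -0.91 do not settle whether it passed 2-fold. Of 128 recomputed log2 differences of single probes, 117 moved by less than the technical SD of 0.08, 11 moved further and 0 called differences changed sign. Some of these recomputations could not move. The 13 for probes well above background on both arrays and the 15 without probes beside a bright spot reused the same levels. The 15 from the series matrix used the same signal times 1 factor per array, which the scaling removes. Without a filter or floor only the GPX3 values in the knockouts could change, and both moved past that SD. With gene means only the GPX7 values could change, since each other tested member had a single probe. The counts from the series matrix and without probes beside a bright spot were fixed in the same way, as no tested member probe was left out. Agreement of all these fixed values therefore says nothing about robustness. Scaling to the median and quantile normalization moved none past that SD. Normexp moved 5, by up to 1.57 for GPX3. GPX1 in Arp8 KO ranged from 0.86 to 1.09, the latter against Arp8 OE. The counts over all probes (899 in Arp5 KO, 1896 in Arp8 KO, 1235 in Arp8 OE) moved by over 1.5 times with normexp (307, 696, 445), with probes well above background on both arrays (358, 1208, 619), with no filter or floor (2756, 4572, 3315) and with the 1.5-fold threshold (2147, 5227, 3287), and without probes beside a bright spot were 376, 1336 and 671. Dim probes limit the GPX3 values in the knockouts to bounds, and GPX2 and GPX8 to no comparison. No paired analysis was possible because each group had 1 array.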

Other observations

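The array also carried 1 probe each for GPX5, a peroxidase of the epididymis, and GPX6, of the olfactory epithelium, which are not among the members. GPX5 was above background on every array, with a processed signal of 40.3 in WT (software error 6.75). The signal was 31.8 on the Arp8 OE array (6.29), 26.3 on Arp5 KO (5.78), and 25.9 on Arp8 KO (5.19). The log2 differences from WT were -0.16 for Arp8 OE, -0.62 for Arp5 KO, and -0.47 for Arp8 KO, at signals near the limit of detection. GPX6 had signals between 5.22 and 6.15, below background on all 4 arrays.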
